A study of Mus musculus with 10 samples.

Results

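A set of 10 genes tied to growth arrest was followed in the livers of germ-free mice: Cdkn1a, Gadd45a, Gadd45b, Gadd45g, Btg1, Btg2, Ccng1, Ccng2, Mdm2 and Plk3. They were chosen by name, with earlier results of these data known. Of the 10, 9 were among the 12147 genes tested, and Gadd45b was not analysed here. The mice were wild-type C57BL6 animals raised without microbes. Of these, 5 received microbiota-derived extracellular vesicles (MEV) by mouth, prepared from control specific-pathogen-free mice, at 80 μg in PBS, 2 doses per week for 3 weeks (GF+MEV), and 5 received PBS alone (GF+PBS). Total RNA of whole liver was sequenced, with 1 library per mouse, to ask what MEV do to the liver transcriptome of an animal that makes none of its own. All 10 animals shared the germ-free state, so no liver with a resident flora stood beside them. The age of the mice, and the time of day at which the livers were taken, are not given in the sources used here.

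These genes act together when a cell stops dividing or answers stress. The p53 protein binds DNA near Cdkn1a, Mdm2, Ccng1, Btg2 and Gadd45a and raises their transcription, while FOXO factors, stress kinases and hormones act on Cdkn1a, Gadd45a, Gadd45g, Btg1 and Ccng2. Cdkn1a blocks cyclin-dependent kinases, the GADD45 proteins switch on a stress kinase upstream of p38 and JNK, the BTG proteins recruit the enzymes that shorten the tails of mRNAs, and Mdm2 returns p53 to low levels. In adult liver most hepatocytes are at rest, and several of these genes also rise within hours after feeding cues, toxic injury or loss of liver mass.

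Libraries held between 15746119 and 20523649 counts on genes, and levels are given as CPM, the count of a gene over the scaled total of its library. Hepatocyte markers summed to between 92381 and 111704 CPM in GF+MEV livers and between 96410 and 112299 CPM in GF+PBS livers. By chi-square per gene, GF+MEV 2 was apart from the other GF+MEV livers, at 133 to 175 against each of them. The others gave 8.14 to 21.3 among themselves. By the root mean square log2 difference over the 500 most variable genes it was hardly apart, at 1.02 to 1.09 where the others gave 0.806 to 1.02. In GF+PBS, livers 1 and 3 and livers 4 and 5 resembled each other more than the rest by that difference, at 0.65 and 0.562. Other GF+PBS pairs gave 0.803 to 1.05. The chi-square per gene of these alike pairs was 6.33 and 7.17, and other GF+PBS pairs gave 8.54 to 24.9. For members and listed genes, calls that were lost when the counts of these alike GF+PBS livers were summed, 1 with 3 and 4 with 5, are given beside each gene. How the mice were caged is not given in the sources used here. The p-values set the difference between groups against the spread between these 10 livers of 1 experiment.

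The 4 members that passed the test between groups are shown first by their promoters, so that the letters upstream of each can be read beside its level. Each window runs from 250 bases before to 50 bases after the RefSeq start of the gene on GRCm38.p6, written 5′ to 3′ on the strand of the gene, and capitals mark the motifs that were found. Cdkn1a is the upstream of its 2 windows, at chr17:29090729-29091028 on the plus strand. Gadd45a lies at chr6:67037358-67037657 on the minus strand, Gadd45g at chr13:51846425-51846724 on the plus strand and Btg2 at chr1:134079106-134079405 on the minus strand.
Cdkn1a: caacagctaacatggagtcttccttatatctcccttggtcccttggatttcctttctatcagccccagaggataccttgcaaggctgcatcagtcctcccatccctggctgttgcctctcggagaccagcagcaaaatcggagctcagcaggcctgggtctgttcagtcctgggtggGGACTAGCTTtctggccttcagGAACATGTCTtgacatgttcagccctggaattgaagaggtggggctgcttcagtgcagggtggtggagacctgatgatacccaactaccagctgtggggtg
Gadd45a: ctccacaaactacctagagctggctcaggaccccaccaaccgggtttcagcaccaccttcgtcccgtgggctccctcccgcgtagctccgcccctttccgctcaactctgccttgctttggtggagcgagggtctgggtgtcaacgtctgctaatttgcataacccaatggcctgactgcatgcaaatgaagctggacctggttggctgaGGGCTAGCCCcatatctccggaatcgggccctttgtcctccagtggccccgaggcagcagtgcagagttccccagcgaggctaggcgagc
Gadd45g: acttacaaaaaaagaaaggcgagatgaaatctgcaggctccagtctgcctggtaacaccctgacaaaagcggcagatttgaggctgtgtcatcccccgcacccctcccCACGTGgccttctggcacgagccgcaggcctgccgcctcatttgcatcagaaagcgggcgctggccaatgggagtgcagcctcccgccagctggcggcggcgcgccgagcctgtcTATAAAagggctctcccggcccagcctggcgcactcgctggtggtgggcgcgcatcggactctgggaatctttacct
Btg2: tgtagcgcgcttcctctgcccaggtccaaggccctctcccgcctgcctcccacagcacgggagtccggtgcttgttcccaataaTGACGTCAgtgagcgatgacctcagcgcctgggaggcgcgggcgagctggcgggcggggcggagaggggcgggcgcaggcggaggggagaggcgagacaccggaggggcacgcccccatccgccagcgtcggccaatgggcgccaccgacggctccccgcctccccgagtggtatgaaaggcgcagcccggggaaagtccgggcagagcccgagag

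Motifs were searched on both strands in 10 windows of 9 members and in 32851 mouse promoter windows of the same length. The capitals in Cdkn1a are both copies of the p53 half-site, a site of 10 letters that p53 binds in pairs, at positions -73 to -64 and -51 to -42, where -1 is the last base before the start. The downstream Cdkn1a window, at chr17:29093519-29093818, held none of the motifs searched. Gadd45a held 1 such half-site at -40 to -31, Ccng1 held 1 at -185 to -176 and Mdm2 held 1 at -186 to -177, while 8.36% of all windows held at least 1. The capitals in Gadd45g are a TATA box, spelled TATAAA, at -27 to -22, and an E-box, spelled CACGTG, at -142 to -137; these letters stood in 13.6% and 7.15% of all windows. The capitals in Btg2 are a cAMP response element, spelled TGACGTCA, at -166 to -159, which 1.79% of windows held. The Btg2 window held no p53 half-site. Btg1 also had TATAAA, at -26 to -21, and Btg1 and Mdm2 each had the FOXO letters GTAAACA on 1 strand or the other, found in 3.65% of windows. No motif overlapped another, and a match describes letters in a window, not binding.

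Of the 9 members tested, Cdkn1a, Gadd45g and Btg2 rose with MEV and Gadd45a fell, by an edgeR quasi-likelihood test with a Benjamini-Hochberg adjusted p under 0.05 over all genes. Over the 12147 genes 4.12% rose, 3.52% fell and 7.64% passed in either direction. In the same 4 members the groups of 5 livers did not overlap, 3 with every GF+MEV liver above every GF+PBS liver and 1 below, while 3.94% and 3.45% of all genes separated upwards and downwards. By log2 fold change, Btg2 ranked 14 from the top of the 12147 genes, Cdkn1a 18 and Gadd45g 32, and Gadd45a ranked 12111. Btg1, Ccng1, Ccng2, Mdm2 and Plk3 did not pass, and their groups overlapped. The members were chosen with earlier results of these data known, so these counts and ranks are descriptions.

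**Figure D1:**
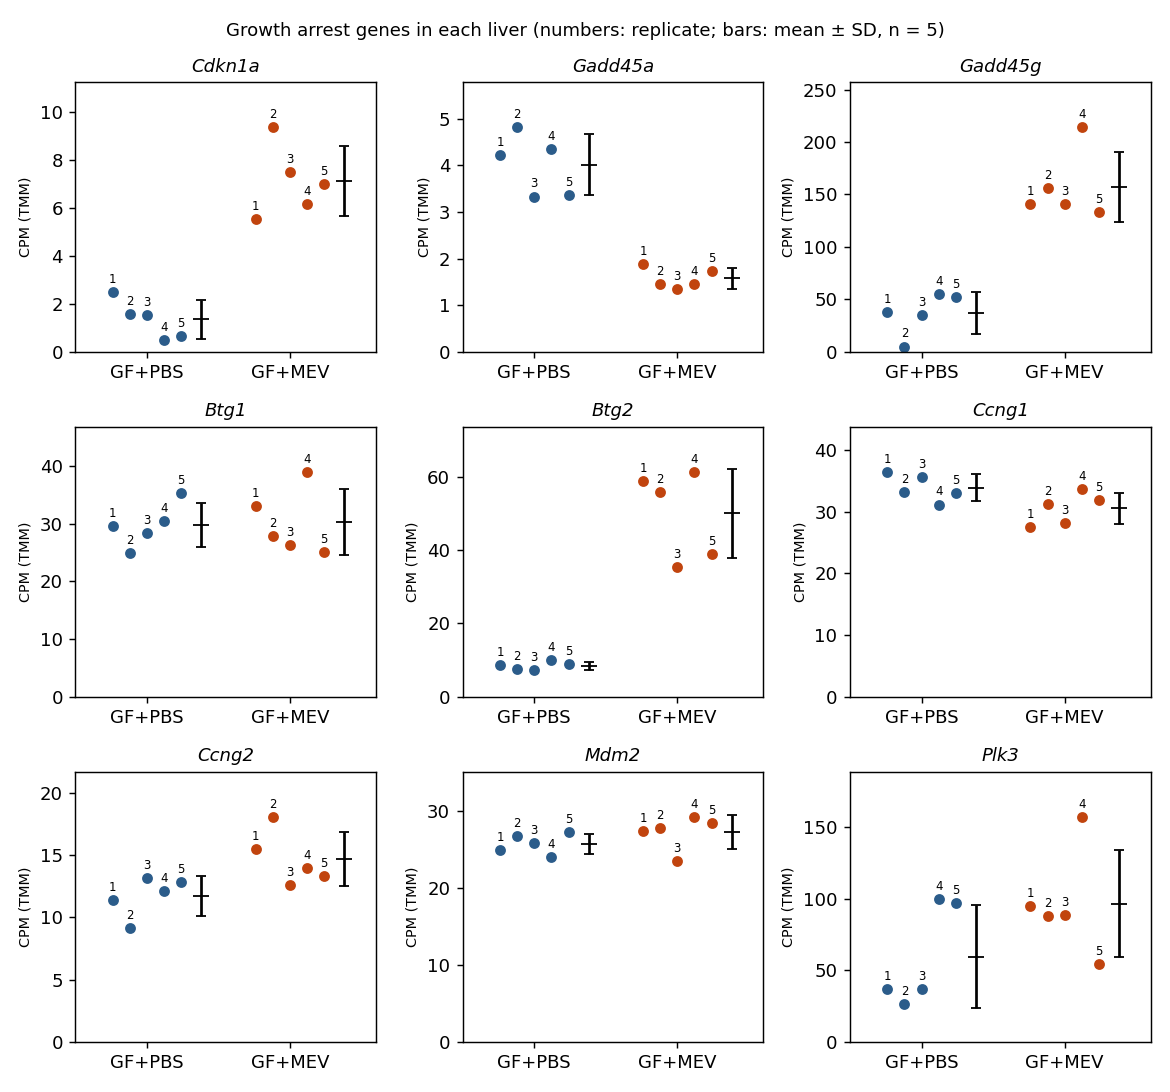
CPM of the 9 members in each liver, with the replicate number above each point and the mean ± SD of 5 livers beside it; blue points are GF+PBS and red points GF+MEV, and each vertical axis starts at 0. Cdkn1a, Gadd45g and Btg2 were higher in every GF+MEV liver and Gadd45a was lower in every one, while the other 5 genes overlapped between groups.

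Cdkn1a (ENSMUSG00000023067, chr17:29090976-29100727, plus strand, GRCm38) encodes the inhibitor that holds cyclin-dependent kinases and stops cells at the entry to S phase. Its level in GF+MEV livers 1 to 5 was 5.55, 9.38, 7.53, 6.18 and 7.003 CPM. In GF+PBS livers 1 to 5 it was 2.50, 1.57, 1.55, 0.505 and 0.661 CPM. The lowest GF+MEV liver was thus above the highest GF+PBS liver, and GF+PBS 4 and 5 were the lowest of all, on 10 and 11 counts. The mean was 7.13 ± 1.47 CPM with MEV and 1.36 ± 0.805 CPM with PBS (SD, n = 5 each), a rise of 2.39 ± 0.41 (SE) on the log2 scale, or 5.25-fold (edgeR adjusted p = 1.24e-04). The SD was 20.6% of the mean in GF+MEV and 59.4% in GF+PBS, and 10 counts alone carry a counting error of 31.6%. Against GF+PBS 1 and 3 alone the log2 fold change was 1.80 (edgeR adjusted p = 8.04e-04). Against GF+PBS 2, 4 and 5 it was 2.96 (edgeR adjusted p = 3.06e-05). These subsets were chosen by likeness in the same data, so both values only describe how the size depends on the GF+PBS livers used. On the opposite strand, the unclassified gene AC167363.2 shares 273 bases, 7.68% of the Cdkn1a exons, and how reads on that stretch were assigned depends on the strand setting of the counting, which is not given in the sources used here.

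Mdm2 (ENSMUSG00000020184, chr10:117688875-117710758, minus strand) encodes the ubiquitin ligase that marks p53 for degradation, and is itself a p53 target. It was at 27.4, 27.7, 23.5, 29.2 and 28.5 CPM in GF+MEV livers and at 24.9, 26.8, 25.8, 24.0035 and 27.2 CPM in GF+PBS livers. These values interleaved, with GF+MEV 3 the lowest of all 10. The log2 fold change was 0.08 ± 0.06 (SE; edgeR adjusted p = 0.563), and the spread was small in both groups, at 8.10% and 5.14% of the mean. Within single livers, Cdkn1a counts were 0.204, 0.339, 0.321, 0.212 and 0.247 of those of Mdm2 in GF+MEV and 0.101, 0.0596, 0.0611, 0.0221 and 0.0254 in GF+PBS. No GF+MEV ratio fell among the GF+PBS ratios. The mean log2 ratio differed by 2.49 ± 0.443 (SE), or 5.62-fold, between groups (exact permutation test over 252 labelings, two-sided p = 0.00794, the smallest the design allows, and 0.00794 after adjustment over the 4 ratios tested). The gap between the groups in Cdkn1a was wider than the whole range of Mdm2, so this ratio had to separate. Its p therefore adds no evidence to that of Cdkn1a.

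Plk3 (ENSMUSG00000028680, chr4:117128655-117133963, minus strand) encodes a stress-responsive polo-like kinase that can phosphorylate p53. In GF+MEV livers 1 to 5 it was at 95.3, 87.9, 88.4, 157.3 and 54.5 CPM. In GF+PBS livers it was at 36.6, 26.1, 37.1, 99.96 and 97.2 CPM. Livers 1 to 3 of GF+PBS were below every GF+MEV liver, whereas GF+PBS 4 and 5 were above 4 of the 5. The log2 fold change of 0.70 ± 0.47 (SE) did not pass (edgeR adjusted p = 0.272). Against GF+PBS 1 and 3 alone it was 1.39 (edgeR adjusted p = 0.00996). Against GF+PBS 2, 4 and 5 it was 0.38 (edgeR adjusted p = 0.655). These subsets were chosen by likeness in the same data, and GF+PBS 1 and 3 both had low Plk3. Their p-values are thus no test of the treatment. The Plk3 exons share 84 bases, 3.32%, with Tctex1d4 on the opposite strand.

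Cdkn1a and Plk3 ran opposite to each other among GF+PBS livers, and less plainly among GF+MEV livers. After the group means were subtracted, their log2 CPM correlated at r = -0.771 over the 10 livers, the most negative of the 36 pairs of members. GF+PBS 4 and 5 had the least Cdkn1a of all livers and the most Plk3 of their group, and GF+MEV 4 had the most Plk3 of all with the second lowest Cdkn1a of its group. GF+MEV 5, by contrast, had the least Plk3 of its group at the median Cdkn1a level. The points share their libraries, and GF+PBS 4 and 5 are also a pair of alike livers, so the correlation is given as a description without a test. Btg1 and Plk3 had the highest correlation (r = 0.789), followed by Btg1 and Btg2 (r = 0.761) and by Gadd45g and Plk3 (r = 0.716). Cdkn1a and Mdm2 were close to 0 (r = -0.0214).

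**Figure D2:**
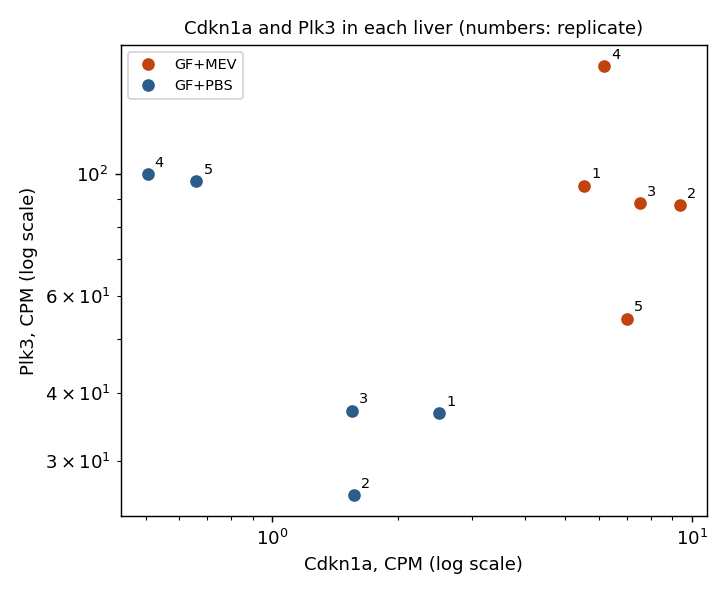
Cdkn1a CPM (horizontal) against Plk3 CPM (vertical) in each of the 10 livers, both on log axes, with the replicate number beside each point. GF+MEV livers (red) stood to the right of all GF+PBS livers (blue), and GF+PBS 4 and 5 combined the least Cdkn1a with the most Plk3 of their group.

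The GADD45 genes encode small acidic proteins that bind and switch on the kinase Map3k4, interfere with cell cycle kinases and take part in DNA demethylation. In these livers 2 members of the family moved in opposite directions. Gadd45a (ENSMUSG00000036390, chr6:67035096-67037457, minus strand) was at 1.89, 1.45, 1.35, 1.46 and 1.73 CPM in GF+MEV livers and at 4.22, 4.82, 3.33, 4.35 and 3.36 CPM in GF+PBS livers. Every GF+MEV liver was thus below every GF+PBS liver. The means were 1.58 ± 0.226 and 4.02 ± 0.650 CPM (SD, n = 5 each), and the log2 fold change was -1.35 ± 0.13 (SE; edgeR adjusted p = 1.04e-04), to 0.392 of the GF+PBS level. These values rest on 21 to 86 counts per library. The long RNA E230016M11Rik lies across Gadd45a on the opposite strand and shares 337 bases, 19.1% of its exons; it was at 2.54 ± 0.776 CPM with MEV and 2.95 ± 0.870 CPM with PBS (log2 fold change -0.23, edgeR adjusted p = 0.643).

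Gadd45g (ENSMUSG00000021453, chr13:51846678-51848468, plus strand), which in liver is known as an early response gene of feeding and growth cues, was at 141.0, 156.3, 140.8, 214.1 and 133.3 CPM in GF+MEV livers. In GF+PBS livers it was at 38.1, 5.04, 34.8, 55.2 and 51.9 CPM. GF+PBS 2 was far below the other GF+PBS livers, on 90 counts where they had 585 to 1093, and GF+MEV 4 was the highest. The means were 157 ± 32.9 and 37.0 ± 19.9 CPM (SD, n = 5 each), a rise of 2.08 ± 0.64 (SE) on the log2 scale, or 4.24-fold (edgeR adjusted p = 0.0034). Without GF+PBS 2 the log2 fold change was 1.80 (edgeR adjusted p = 5.61e-06).

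The balance between both GADD45 genes was also read within each liver. For each Gadd45a count there were 73.4, 105.4, 102.4, 143.9 and 75.5 counts of Gadd45g in GF+MEV livers and 8.99, 1.05, 10.4, 12.6 and 15.3 in GF+PBS livers. The lowest GF+MEV ratio stood well above the highest GF+PBS ratio, and the value near 1 was that of GF+PBS 2. The mean log2 ratio was 6.60 ± 0.399 against 2.84 ± 1.58 (SD, n = 5 each), a difference of 3.76 ± 0.728 (SE) or 13.6-fold (exact permutation test, two-sided p = 0.00794). Since Gadd45g and Gadd45a each separated the groups, in opposite directions, the ratio had to separate as well. Its p therefore adds no evidence to theirs. Without GF+PBS 2 the difference in log2 ratio was 3.07.

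The BTG genes encode antiproliferative proteins that bind the CCR4-NOT deadenylase, through which they speed the decay of mRNAs. Btg2 (ENSMUSG00000020423, chr1:134075170-134079120, minus strand), a p53 and immediate-early target, had the smallest p among the members. It was at 58.8, 56.0, 35.3, 61.3 and 38.9 CPM in GF+MEV livers and at 8.55, 7.45, 7.32, 10.006 and 9.01 CPM in GF+PBS livers. GF+MEV 3 and 5 were lower than the other GF+MEV livers and still more than 3 times the highest GF+PBS liver. The means were 50.1 ± 12.1 and 8.47 ± 1.12 CPM (SD, n = 5 each), a rise of 2.56 ± 0.18 (SE) on the log2 scale, or 5.89-fold (edgeR adjusted p = 1.25e-07). The SD of Btg2 was 13.2% of its mean in GF+PBS and 24.1% in GF+MEV.

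Btg1 (ENSMUSG00000036478, chr10:96617006-96622809, plus strand), its nearest relative in the list and a gene of resting cells, was at 33.0, 27.9, 26.3, 38.9 and 25.1 CPM in GF+MEV livers. In GF+PBS livers it was at 29.6, 24.9, 28.5, 30.4 and 35.4 CPM. The groups covered the same range, and the log2 fold change was 0.02 ± 0.14 (SE; edgeR adjusted p = 0.937), with a sign that changed with the scaling and with the livers included. The annotation holds copies of the gene, Btg1-ps1 and Btg1-ps2, on chromosome X, so some reads may have been shared or dropped and the Btg1 level is uncertain. The ratio of Btg2 to Btg1 counts was 1.78, 2.01, 1.34, 1.58 and 1.55 in GF+MEV livers and 0.290, 0.300, 0.258, 0.330 and 0.255 in GF+PBS livers. Btg2 was therefore the more counted of the pair in every GF+MEV liver and the less counted in every GF+PBS liver. The log2 ratio differed by 2.52 ± 0.12 (SE), or 5.74-fold (exact permutation test, two-sided p = 0.00794). The gap between the groups in Btg2 was wider than the whole range of Btg1, so this ratio had to separate. Its p therefore adds no evidence to that of Btg2.

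The cyclin G genes encode related cyclins. Ccng1 is a p53 target that works with protein phosphatase 2A on Mdm2. Ccng2 is a FOXO target that falls when cells are given insulin or growth factors. Ccng1 (ENSMUSG00000020326, chr11:40748552-40755311, minus strand) was at 27.6, 31.2, 28.2, 33.7 and 31.9 CPM in GF+MEV livers and at 36.4, 33.2, 35.7, 31.2 and 33.0 CPM in GF+PBS livers. GF+MEV 1 and 3 lay below every GF+PBS liver and the other GF+MEV livers overlapped with them, with a log2 fold change of -0.15 ± 0.07 (SE) that did not pass (edgeR adjusted p = 0.245). Ccng2 (ENSMUSG00000029385, chr5:93267257-93276231, plus strand) was at 15.5, 18.1, 12.7, 13.98 and 13.4 CPM in GF+MEV livers and at 11.4, 9.13, 13.2, 12.1 and 12.9 CPM in GF+PBS livers. Of the GF+MEV livers, only GF+MEV 3 lay below a GF+PBS liver, and the log2 fold change of 0.32 ± 0.13 (SE) did not pass (edgeR adjusted p = 0.121).

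Set against each other within a liver, the cyclin G genes did separate. Ccng2 counts were 0.562, 0.579, 0.448, 0.415 and 0.420 of Ccng1 counts in GF+MEV livers and 0.315, 0.276, 0.369, 0.390 and 0.390 in GF+PBS livers. The gap between the groups was narrow, with 0.415 the lowest GF+MEV ratio and 0.390 the highest GF+PBS ratio. The log2 ratio differed by 0.48 ± 0.143 (SE), or 1.39-fold (exact permutation test, two-sided p = 0.00794). This was the smallest of the 4 ratio differences, each of which kept its direction with any 1 liver left out.

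**Figure D3:**
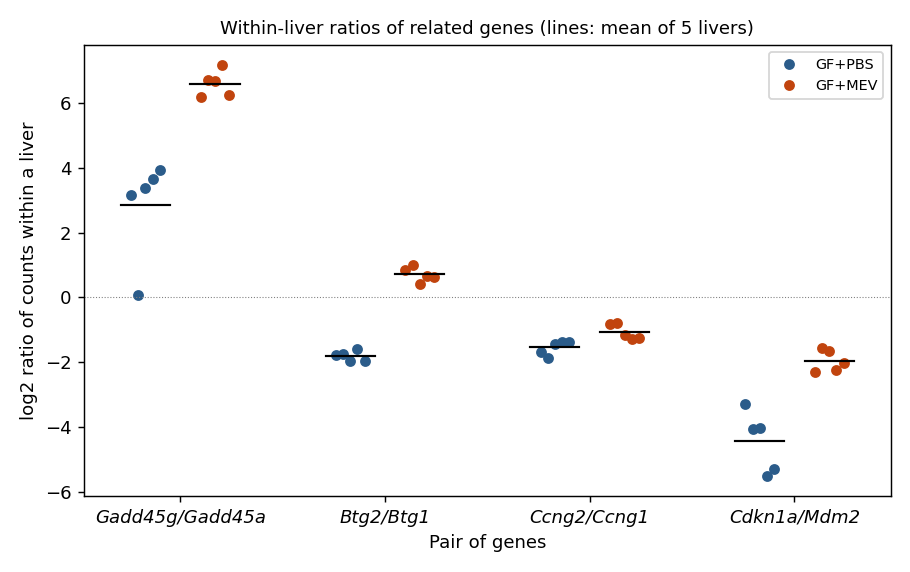
log2 ratio of counts of related members within each liver for 4 pairs, with 1 point per liver, blue for GF+PBS and red for GF+MEV, and a line at the mean of 5 livers; the dotted line at 0 marks equal counts. In all 4 pairs the GF+MEV livers stood above the GF+PBS livers, by 3.76 for Gadd45g over Gadd45a and by 0.48 for Ccng2 over Ccng1.

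Levels of different genes were compared per length, as CPM per kilobase of merged exons. In GF+PBS livers Gadd45g had the highest mean level, at 31.6 CPM per kilobase (range 4.30 to 47.1), followed by Plk3 at 23.5 (10.3 to 39.5) and Ccng1 at 9.66 (8.88 to 10.4), and neighbours in this order overlapped. Btg1 at 5.64 and Mdm2 at 5.06 came below Ccng1 without overlap, and Btg2 at 3.09, Gadd45a at 2.28 and Ccng2 at 2.15 came below these, each overlapping the next. Cdkn1a was the lowest, at 0.382 (0.142 to 0.703), below every Ccng2 value.

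In GF+MEV livers the order of the uncalled genes was the same, and the called genes had moved through it. Gadd45g was at 133.9 CPM per kilobase (113.7 to 182.5), now apart from Plk3 at 38.2 (21.6 to 62.1). Btg2, at 18.2 (12.9 to 22.4), stood above Ccng1 at 8.69 and overlapped Plk3. Cdkn1a, at 2.01 (1.56 to 2.64), overlapped Ccng2 at 2.696 (2.32 to 3.31), and Gadd45a, at 0.894 (0.766 to 1.07), was the lowest of the 9.

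**Figure D4:**
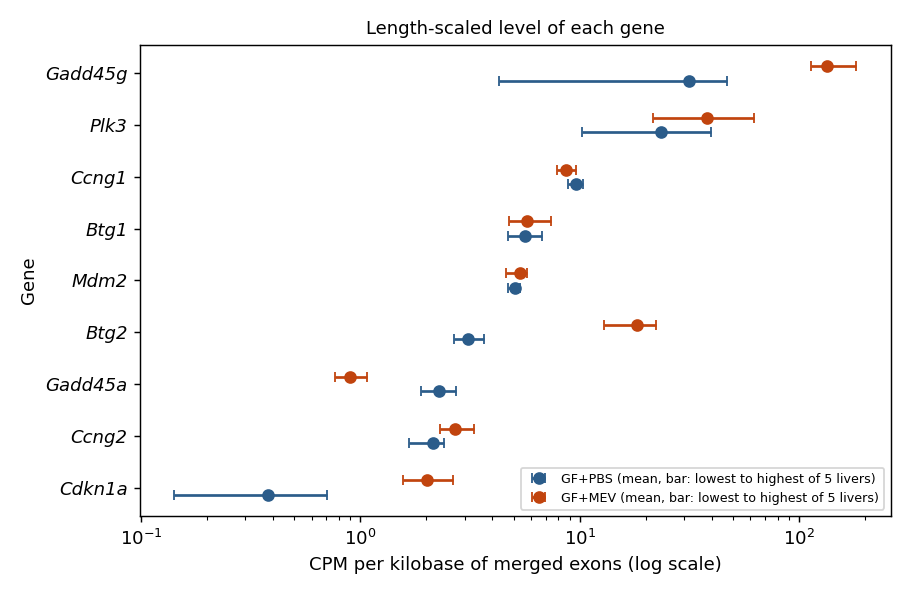
Mean level of each member in CPM per kilobase of merged exons on a log axis, with bars from the lowest to the highest of 5 livers; GF+PBS in blue, GF+MEV in red. Gadd45g was the most and Cdkn1a the least abundant member in GF+PBS livers, and Gadd45a was the least abundant in GF+MEV livers.

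The wider pathway was read from lists of genes written from general knowledge, with earlier results of these data known. Changes are given as log2 fold changes. Among p53 targets outside the members, 25 of 30 were tested, 3 rose, 2 fell and 20 did not pass, with a median log2 fold change of -0.03 where that of all genes was -0.0037. Over all genes 4.12% rose and 3.52% fell. Of the 25, 11 had an unadjusted edgeR p under 0.05, with changes in both directions, as did 2572 of all 12147 genes. Trp53inp1, a p53-induced nuclear and autophagy protein, rose by 2.41 on the log2 scale, from 27.0 to 42.6 CPM in GF+PBS to 122 to 202 CPM in GF+MEV livers (edgeR adjusted p = 9.28e-08). Gdf15, a stress hormone secreted by the liver, rose by 2.25 (edgeR adjusted p = 6.71e-04). Bbc3, which promotes apoptosis, and Plk2, a kinase related to Plk3, had log2 fold changes of -0.77 (edgeR adjusted p = 8.47e-04) and -0.72 (edgeR adjusted p = 0.0028). The fifth call, the repair nuclease gene Ercc5, is named after its values were seen and rose by 0.28 (edgeR adjusted p = 0.0393), and did not pass with the alike GF+PBS livers summed (edgeR adjusted p = 0.0579). Sesn2, also named after its values were seen, passed by DESeq2 but not by edgeR (log2 fold change 0.36, edgeR adjusted p = 0.0525), and its groups did not overlap.

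Of p53 and its regulators, 14 of 15 were tested and 1 rose, the acetyltransferase gene Crebbp (log2 fold change 0.41, edgeR adjusted p = 0.0211), where 4.12% of all genes rose. Trp53 itself, the gene of p53, was at 18.2 ± 1.5001 CPM with MEV and 20.1 ± 1.56 CPM with PBS (log2 fold change -0.14, edgeR adjusted p = 0.334). Protein levels and p53 activity were not measured.

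The lists of cell cycle genes had 3 other inhibitors, 14 G1 genes and 14 genes of S phase and mitosis tested. By edgeR 1 of all these passed, where 7.64% of all genes did. None of the 3 other inhibitors of cyclin-dependent kinases tested of 7 listed passed by edgeR, DESeq2 or limma-voom, and 1 had an unadjusted edgeR p under 0.05, Cdkn2d, at a log2 fold change of -0.35. None of 14 tested G1 cyclins, kinases and pocket proteins of 16 listed passed by edgeR or limma-voom, with a median of -0.02; 3 had an unadjusted edgeR p under 0.05, and 1 of them, Ccnd3, passed by DESeq2. With the alike GF+PBS livers summed, 1 of the list passed by edgeR. Ccnd3, named after its values were seen, encodes a D-type cyclin, and its log2 fold change was 0.23 (edgeR adjusted p = 0.0559). Of 14 tested genes of S phase and mitosis, of 24 listed, 1 rose, Rrm2, a subunit of the enzyme that makes deoxynucleotides (log2 fold change 0.85, edgeR adjusted p = 0.0161), and its groups overlapped. Another 10 of that list, among them Top2a, Ccnb1 and Plk1, were not in the table.

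Partners of the members were counted next, where 4.12% of all genes rose and 3.52% fell by edgeR. Of 11 tested MAPK kinases and kinase targets of the GADD45 proteins, of 12 listed, Map2k6, a kinase that activates p38, rose by 1.03 (edgeR adjusted p = 0.00827) and Map3k5 by 0.43 (edgeR adjusted p = 0.0285), and for both genes the groups overlapped. With the alike GF+PBS livers summed, Map3k5 did not pass (edgeR adjusted p = 0.0635). Map3k4, the kinase that GADD45 proteins bind, had a log2 difference of -0.07 (edgeR adjusted p = 0.734). The other BTG/TOB family genes, 3 of 3, rose: Tob2 by 1.41 (85.8 ± 7.86 against 32.3 ± 9.99 CPM, edgeR adjusted p = 8.34e-05), Btg3 by 0.86 (edgeR adjusted p = 0.0332) and Tob1 by 0.48 (edgeR adjusted p = 0.00573). Btg3 did not pass with the alike GF+PBS livers summed (edgeR adjusted p = 0.082), which left 2 of 3. In the CCR4-NOT complex and Prmt1, to which BTG proteins bind, 1 of 12 passed, the deadenylase subunit gene Cnot8, at -0.24 (edgeR adjusted p = 0.0276), and none did with the alike GF+PBS livers summed (Cnot8 at an edgeR adjusted p of 0.148). None of the 7 cyclin G partners, mostly subunits of protein phosphatase 2A, passed by edgeR, DESeq2 or limma-voom, 0 had an unadjusted edgeR p under 0.05, and their median was 0.04.

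The last lists hold FOXO factors together with growth arrest targets, and immediate-early genes. Only some of these genes encode factors that act on the members in other settings. By edgeR 4.12% of all genes rose and 3.52% fell. Of 13 tested FOXO factors and growth arrest targets, of 14 listed, 3 rose: Txnip, an arrestin that limits glucose uptake, by 1.502 (159.9 to 198.5 CPM against 50.4 to 75.3 CPM, edgeR adjusted p = 2.78e-07), Foxo1 by 0.79 (edgeR adjusted p = 2.05e-04) and Foxo3 by 0.57 (edgeR adjusted p = 0.00404). Foxo1, like Jun, is also a gene that the study named from these livers, so neither is independent evidence of a direction. The median of this list was 0.02. Of 13 tested immediate-early genes, of 16 listed, 6 rose and 1 fell, with a median of 0.67. Jun, which encodes a subunit of AP-1, rose by 2.78 (54.2 to 96.3 CPM against 6.78 to 15.3 CPM, edgeR adjusted p = 7.93e-07), Nr4a1 by 1.77 (edgeR adjusted p = 0.00659) and Maff by 1.36 (edgeR adjusted p = 6.26e-04). Myc, which drives growth and represses Cdkn1a, fell, with a log2 difference of -1.50 (edgeR adjusted p = 0.0414) and 2.99 to 6.01 CPM in GF+MEV and 3.19 to 21.9 CPM in GF+PBS livers, which overlapped. Myc did not pass by limma-voom, nor by edgeR with the alike GF+PBS livers summed (edgeR adjusted p = 0.118). Zfp36, Atf3 and Jund, named after their values were seen, made up the other calls and rose by 1.13, 0.98 and 0.67.

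**Figure D5:**
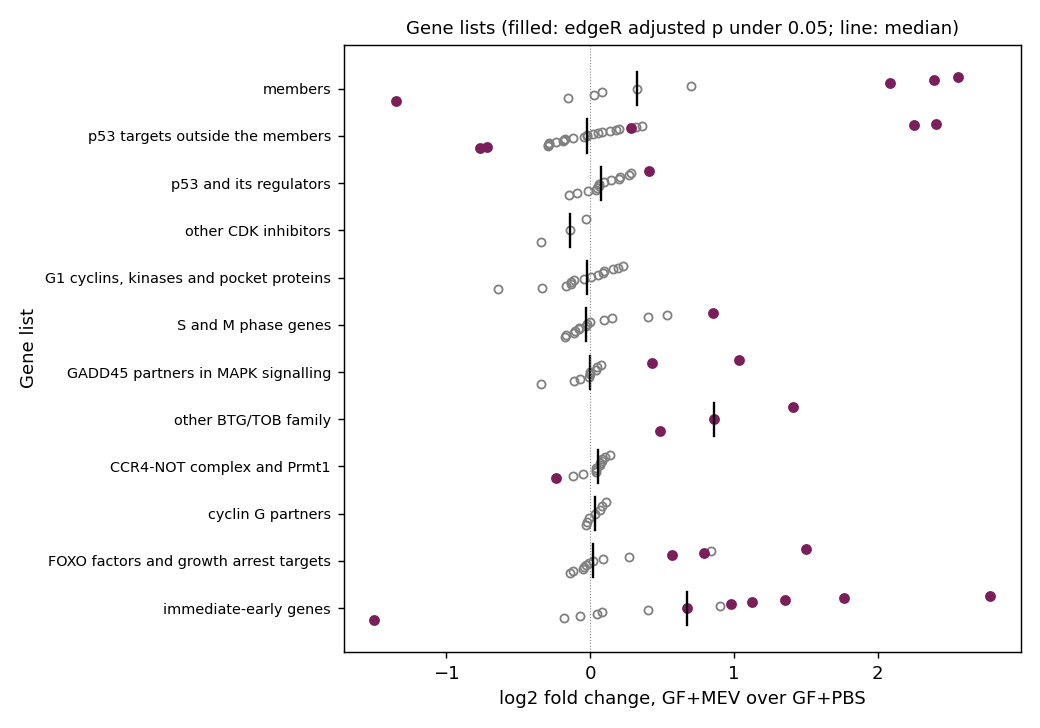
log2 fold change, GF+MEV over GF+PBS, of each tested gene of the members and of 11 lists, 1 row per list; filled points passed the edgeR test, open points did not, and the black line is the median. The lists of p53 targets, G1 genes, S and M phase genes and CCR4-NOT subunits had medians near 0. The 3 other inhibitors of cyclin-dependent kinases had a median of -0.14. The BTG/TOB relatives and the immediate-early genes had medians of 0.86 and 0.67.

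The genes whose level followed a member most closely from liver to liver were looked up among 11825 genes whose mean reached 1 CPM, by the correlation of log2 CPM over the 10 livers after the group means were subtracted. For Cdkn1a these were Arf2 (r = 0.964), Scamp5 (r = 0.944) and Hes1 (r = 0.936), and Hes1 fell between groups, with -0.65 on the log2 scale (edgeR adjusted p = 0.0169). For Gadd45g they were Errfi1 (r = 0.968), Spsb4 (r = 0.946) and Cdc42ep5 (r = 0.942), and Errfi1 and Cdc42ep5 rose as Gadd45g did, by 1.11 (edgeR adjusted p = 1.46e-05) and 1.10 (edgeR adjusted p = 0.0122). For Btg2 they were Gins1 (r = 0.944), Zfp873 (r = 0.926) and Med6 (r = 0.912), and for Gadd45a Pilrb1 (r = 0.886), Fntb (r = 0.883) and Efna5 (r = 0.880); these 6 genes did not pass the test between groups. The points share libraries and depth, and the closest of so many genes are close by selection.

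In bulk tissue, fewer cells of a type and less RNA per cell cannot be told apart, so marker lists of other liver cells stand beside these results. Cholangiocyte markers summed to 28.1 to 79.3 CPM in GF+MEV and 23.2 to 29.7 CPM in GF+PBS livers, with 1 of 3 tested, Krt19, higher. Most of these sums was Spp1 (35.7 ± 14.6 against 24.8 ± 2.998 CPM), and Sox9 was at 0.961 ± 0.440 against 1.88 ± 0.784 CPM (SD, n = 5 each); neither passed, and Krt7 and Epcam were not in the table. B cell markers summed to 3.86 to 4.88 CPM in GF+MEV and 6.61 to 8.44 CPM in GF+PBS livers, without overlap, with Cd79a and Cd79b lower of 4 tested. Kupffer cell markers (158 to 323 against 188 to 275 CPM, 0 of 5 called), stellate cell markers (132 to 188 against 156 to 171 CPM, 0 of 5), endothelial markers (83.8 to 135 against 103 to 137 CPM, with Lyve1 higher and Clec4g lower of 5), erythroid markers (231 to 360 against 260 to 437 CPM, 0 of 3) and skeletal muscle markers (190 to 260 against 164 to 562 CPM, 0 of 3) overlapped between groups. Among the lists with no call by edgeR, DESeq2 or limma-voom, 1 stellate and 1 muscle marker had an unadjusted edgeR p under 0.05 and 0 of the Kupffer cell and erythroid markers did. Hnf4a and Cps1 were higher among the 6 hepatocyte markers, and none of 4 T and NK cell or 4 neutrophil markers was in the table. Over all genes 7.64% passed in either direction. With the alike GF+PBS livers summed, Cd79b, Clec4g, Lyve1 and Cps1 did not pass (edgeR adjusted p from 0.0579 to 0.107). The marker genes named here were named after their values were seen, and the part of these cell types in the members' results was not tested.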

How the data were processed

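Liver RNA of 5 GF+MEV and 5 GF+PBS mice was analysed from the raw counts per Ensembl gene that the authors deposited, without normalization. Per the submitters' processing notes, bcl2fastq 2.17 and STAR 2.7.3a were used with GRCm38; the study's methods name HTSeq and a filter on genes with fewer than 20 counts, and the smallest total in the table was 59. The annotation and strand setting are not given in the sources used here, and 5 columns that match none of the described samples were not used.

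Symbols and exons came from GENCODE for GRCm38, and 10 of 12148 identifiers had no symbol. A gene needed a sum of 20 counts in the 10 libraries to enter the test, and 12147 did. The quasi-likelihood fit of edgeR 4.0.16 in R 4.3.3 used the group alone, TMM scaling and Benjamini-Hochberg adjustment at 0.05, and SEs were computed on the log2 CPM scale after a prior count of 2 was added. The SE beside a log2 fold change is that of the difference in group means of log2 CPM. It is not the SE of the edgeR estimate, which can differ from that difference. A gene is said to rise or fall only where it passed. Ratios of counts plus 0.5 were compared by exact two-sided permutation over all 252 labelings; 4 of 6 planned ratios were tested, since the others need Gadd45b. The steps were checked on simulated counts.

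The members and lists were chosen with earlier results of these data known, so counts over a list are descriptions. Genes were named by rule: all members, up to 4 called genes of a list with the largest change, and the 3 genes closest to each called member within groups. Alternatives were DESeq2 1.42.0, voom of limma 3.58.1, other scalings and filters, a block for the replicate numbers, each liver left out, and GF+PBS livers summed or selected by likeness.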

Additional observations from a re-analysis of the deposited data

Results flagged for a closer look

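In 26 groups of 5 livers (9 members and 4 ratios in each treatment), the gap between an extreme liver and its nearest neighbour was set against the range of the group. In 2 of them the gap was larger than Dixon's 95% limit, where chance alone gives about 1 in 20, or 1.3 of 26. Gadd45g CPM in GF+MEV had a gap of 0.715 of the range, from GF+MEV 4 at 214.1 CPM to the others at 133.3 to 156.3 CPM. The log2 ratio of Gadd45g to Gadd45a in GF+PBS had a gap of 0.802 of the range, from GF+PBS 2, with 1.05 counts of Gadd45g per count of Gadd45a, to the others at 8.99 to 15.3.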

How the results depend on the processing

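Cdkn1a, Gadd45g and Btg2 rose and Gadd45a fell under every alternative run. Their log2 fold changes ranged from 1.80 to 2.96, 1.80 to 2.43, 2.47 to 2.66 and -1.43 to -1.27. Plk3 was past the threshold only against GF+PBS 1 and 3 alone (1.39), which were selected by likeness in the same data and both had low Plk3. The log2 fold change of Btg1 turned negative with upper-quartile scaling (-0.017) and with library size alone (-0.047), and ran from -0.084 to 0.092 with 1 liver left out; the cause was not tested. With library size alone 332 genes rose and 691 fell, where TMM gave 500 and 428. The share of calls that were higher, 53.88% with TMM, was 41.15% with upper-quartile scaling, 32.45% with library size alone and 68.85% against GF+PBS 1 and 3 alone. With GF+PBS 1 and 3 and GF+PBS 4 and 5 summed, which leaves fewer samples, 209 genes fell and 561 were called, against 928. The replicate numbers did not pair the livers (same-number correlations -0.151 to 0.141). With them as a replicate block 792 genes were called, and no call of a member changed. The 4 ratio differences stayed past the threshold with another pseudocount, as differences of medians and with each liver left out (adjusted p at most 0.0476), and were not run with GF+PBS livers summed or selected, nor with the block. Apart from Ccng2 over Ccng1, the ratios had to separate given their genes, so their p-values add no evidence to the tests of those genes. Low counts limit Cdkn1a and Gadd45a, and 5 livers a group limit the precision of all values.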
